A study of Mus musculus with 9 samples.

Results

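The genes described here are 9 genes of retinoid signalling: the cellular retinoic acid binding proteins Crabp1 and Crabp2, the retinoic acid receptors Rara, Rarb and Rarg, the retinoid X receptor Rxra, the retinol transporter Stra6, and the retinoid enzymes Dhrs3 and Cyp26b1. They were chosen by symbol, and all 9 were found among the 20512 named genes of the authors' deposited expression table. Whole tongues of mice about 6 weeks old, from a cross of C57/Bl6 with FVB/NJ, were measured by RNA sequencing. The control group held 5 libraries from K14-rtTA mice. The Bmi1 transgene group held 4 libraries from K14-rtTA; TREFLBmi-1 mice. All mice drank doxycycline at 2 mg/mL for 1 week, so control mice carried the driver and received the drug as well. The keratin 14 promoter drives the doxycycline-dependent activator in basal epithelial cells, whereas the RNA came from the entire organ with its muscle, connective tissue, vessels, nerves and glands. In such samples fewer cells of a type and less RNA per cell cannot be told apart.

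Retinoic acid is the active form of vitamin A. Retinol enters cells through carriers such as Stra6, is oxidized to retinaldehyde and then to retinoic acid, and is removed by enzymes of the Cyp26 family. Retinoic acid bound to a receptor of the Rar family, which pairs with a receptor of the Rxr family on DNA, switches target genes on, and several of those targets (Rarb, Crabp2, Stra6, Dhrs3 and Cyp26 genes among them) belong to the pathway itself. In squamous epithelia vitamin A is known for holding back keratinization, and lack of it makes moist epithelia cornify.

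Rarb carries a well known retinoic acid response element in its promoter, which is printed here because it ties the receptor genes to the ligand whose handling the other members control. The sequence is the RefSeq promoter of Rarb on build GRCm38.p6, chr14:16575427-16575726 on the minus strand, from 250 bases before to 50 bases after the start. Capitals mark a DR5 element, a direct repeat of a receptor half-site with a spacer of 5 bases, which lies from -53 to -37 relative to the start.

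Rarb: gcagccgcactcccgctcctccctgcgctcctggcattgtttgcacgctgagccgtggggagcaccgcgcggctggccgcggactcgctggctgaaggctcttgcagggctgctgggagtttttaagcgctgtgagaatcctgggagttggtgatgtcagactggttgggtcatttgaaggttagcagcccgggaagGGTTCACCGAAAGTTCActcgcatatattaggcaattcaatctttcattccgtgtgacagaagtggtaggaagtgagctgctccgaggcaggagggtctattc

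A search of the RefSeq promoters matched 8 of the 9 members (Crabp2 had no match) and covered 18 promoter windows. The half-sites searched were AGGTCA with its close form GGGTCA, beside AGTTCA with its close form GGTTCA, in any pairing, as direct repeats with spacers of 1, 2 or 5 bases on both strands, and matches of different spacers could overlap. Rarb's window was the 1 of 18 with a match. Among all 32851 promoter windows of the table, 0.0974% held a DR5 match, 0.268% a DR2 match and 0.222% a DR1 match. For comparison, the Crabp1 promoter (GRCm38.p6, chr9:54764498-54764797, plus strand), printed because Crabp1 was among the members with the largest group difference, held none of these repeats and has no capitals.

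Crabp1: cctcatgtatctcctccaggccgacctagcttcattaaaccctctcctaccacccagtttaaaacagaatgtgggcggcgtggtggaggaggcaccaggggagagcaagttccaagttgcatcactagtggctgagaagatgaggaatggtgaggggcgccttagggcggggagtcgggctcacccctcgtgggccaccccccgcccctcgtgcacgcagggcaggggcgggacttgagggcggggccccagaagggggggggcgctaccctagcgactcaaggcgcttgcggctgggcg

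A match is a description of the letters and says nothing about binding in these tongues.

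Values are the authors' log2 normalized expression, on which a step of 1 doubles the level, and differences are given as transgene minus control. Read counts were not analysed here and the depth of each library is unknown. Whether each library is a separate animal is not in the labels, and the p-values therefore reflect spread among libraries, which may be technical. The deposited values hold no variation between 3 sets of libraries, called strata, beyond the group means: 5 of the 7 possible directions of variation within groups remain. Replicate 1 of each group forms stratum 1. Controls 2 and 3 with transgene replicates 2 to 4 form stratum 2, and controls 4 and 5 form stratum 3. No label says what the strata stand for. The test was limma with terms for group and stratum over the 14490 genes whose mean log2 value was 3 or more, and a gene was called at a Benjamini-Hochberg adjusted p under 0.05. This fit called 240 genes, or 1.66% of those tested, and 0 to 1841 genes with 1 library left out. Bmi1 itself stood between 10.21 and 10.74 in controls and between 11.94 and 14.87 in transgene libraries, a difference of 2.44 (SE 0.60, adjusted p 0.0672 in limma with stratum terms, 0.00719 with the group as the only term).

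All 9 members were measured well above the floor, and the pathway showed small differences between the groups. Crabp1 and Crabp2 stood about 15% lower on the linear scale in transgene tongues (14.9% and 14.7%) and Rara stood 12.7% higher. For these 3 genes the libraries of the groups did not overlap. Rarb, Rxra and Cyp26b1 had differences between -0.01 and 0.03. In limma with stratum terms 0 of 9 members were called, and 3 of 9 (Crabp1, Crabp2 and Rara) had an unadjusted p under 0.05, as did 23.0% of all tested genes. With the group as the only term the same 3 were called, beside 24.4% of all tested genes. The authors' deposited table of 981 genes lists 1 of the 9, Crabp2. Groups without overlap were seen for 3 of 9 members and for 21.3% of tested genes, so separation of this kind is common in these values.

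**Figure D1:**
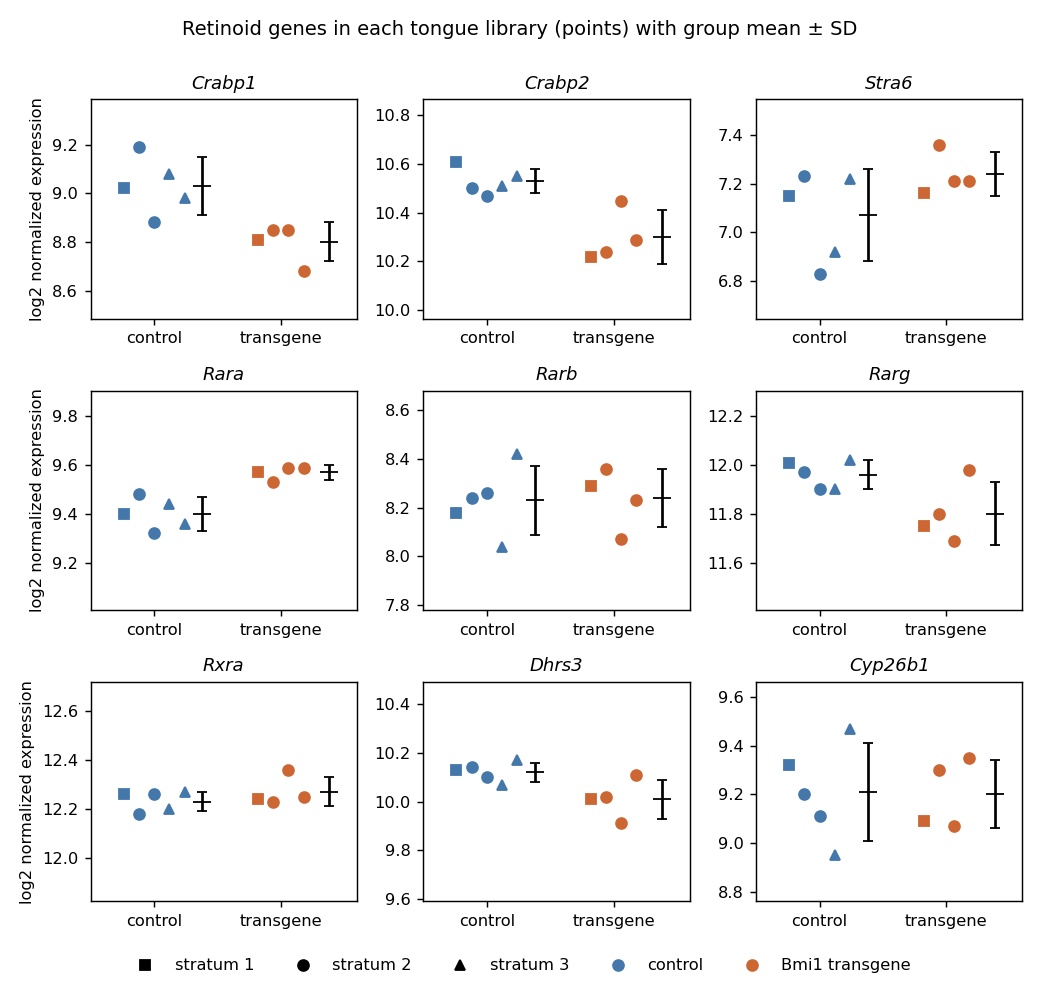
Log2 normalized expression (y axis, each panel spanning 0.9) of the 9 retinoid genes in 5 control and 4 transgene libraries. Points are libraries with their shape showing the stratum, and bars are the group mean ± SD. Transgene points lie below all control points for Crabp1 and Crabp2 and above them for Rara, whereas the groups overlap for the other 6 genes.

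Crabp2 delivers retinoic acid from the cytoplasm to its nuclear receptors, and it is prominent in differentiating keratinocytes. It stood at 10.61, 10.50, 10.47, 10.51 and 10.55 in control replicates 1 to 5 and at 10.22, 10.24, 10.45 and 10.29 in transgene replicates 1 to 4. Transgene replicate 3 came closest to the controls, and the groups did not overlap. The means were 10.53 ± 0.05 (SD, n = 5) and 10.30 ± 0.11 (SD, n = 4), a difference of -0.23 with a 95% interval from -0.38 to -0.08 (SE 0.07, adjusted p 0.0904 in limma with stratum terms). The difference was -0.40 within stratum 1, which has 1 library per group, and -0.16 within stratum 2. The authors' deposited table gives Crabp2 a log2 fold change of -0.28 (standard error 0.09, adjusted p 0.0271).

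Crabp1, the sister protein that binds retinoic acid in the cytoplasm and is linked to its breakdown, stood at 9.02, 9.19, 8.88, 9.08 and 8.98 in controls. In transgene libraries it stood at 8.81, 8.85, 8.85 and 8.68. Control replicate 3 and transgene replicates 2 and 3 were separated by a narrow gap, and transgene replicate 4 was lowest. The means were 9.03 ± 0.12 (SD, n = 5) and 8.80 ± 0.08 (SD, n = 4), a difference of -0.23 (95% interval -0.41 to -0.06, adjusted p 0.132 in limma with stratum terms). The difference was similar in both strata, at -0.20 and -0.25. Without control replicate 2 it was -0.14.

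The ratio of the binding proteins to each other overlapped between the groups. Per kilobase of transcript, the log2 ratio of Crabp2 to Crabp1 ranged from 1.09 to 1.38 in controls and from 1.18 to 1.39 in transgene libraries, with means of 1.28 ± 0.13 (SD, n = 5) and 1.29 ± 0.12 (SD, n = 4). Crabp2 was thus 2.43-fold above Crabp1 per kilobase in controls and 2.44-fold above it in transgene libraries.

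Both binding protein genes have short transcripts (802 bases for Crabp1 and 931 for Crabp2), and group differences in these values follow transcript length. Among 801 tested genes of up to 1000 bases the median difference was -0.15, with quartiles of -0.23 and -0.08. Among 2901 genes longer than 5000 bases it was 0.11. With the length trend taken out, the differences were -0.10 for Crabp2 (adjusted p 0.559 in limma) and -0.09 for Crabp1 (adjusted p 0.579). The part of transcript length in the lower values of these genes was not tested.

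**Figure D2:**
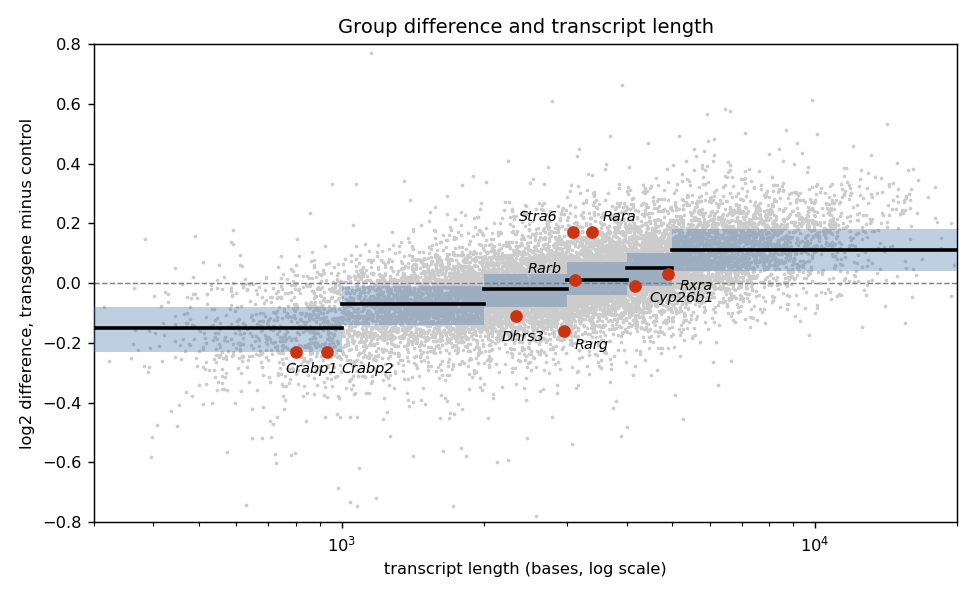
Log2 difference between the groups (y axis) against transcript length in bases (x axis, log scale) for tested genes with a known length, 56 of 14406 of which lie outside the axes. Grey points are genes, black lines are medians of length bins, blue bands run between the quartiles and red points are the 9 retinoid genes. Crabp1 and Crabp2 lie at the lower quartile of their bin, whose median is -0.15, whereas Rara and Stra6 lie above and Rarg and Dhrs3 lie below the quartile band of their bins.

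Among the receptors, the estimated differences of Rara and Rarg had opposite signs, and neither gene was called. Rara, the broadly expressed retinoic acid receptor, stood at 9.40, 9.48, 9.32, 9.44 and 9.36 in controls and at 9.57, 9.53, 9.59 and 9.59 in transgene libraries. The transgene libraries lay close together and above every control. The means were 9.40 ± 0.07 (SD, n = 5) and 9.57 ± 0.03 (SD, n = 4), a difference of 0.17 (95% interval 0.05 to 0.29, adjusted p 0.112 in limma with stratum terms). It was 0.17 within each of strata 1 and 2, and 0.16 after removal of the length trend.

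Rarg, the main retinoic acid receptor of skin epithelium, stood at 12.01, 11.97, 11.90, 11.90 and 12.02 in controls. It stood at 11.75, 11.80, 11.69 and 11.98 in transgene libraries. Transgene replicate 4 lay among the controls, and the other 3 transgene libraries lay below all of them. The difference was -0.16 (95% interval -0.32 to 0.01, adjusted p 0.235 in limma with stratum terms), and it was -0.22 without transgene replicate 4 (adjusted p 0.0883). It was -0.26 within stratum 1, -0.11 within stratum 2, and -0.15 after removal of the length trend.

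Rarb is both a receptor and a direct target of retinoic acid through the element printed above. It stood at 8.18, 8.24, 8.26, 8.04 and 8.42 in controls and at 8.29, 8.36, 8.07 and 8.23 in transgene libraries, so the groups overlapped throughout. The difference was 0.01, with a 95% interval from -0.21 to 0.23 (adjusted p 0.966 in limma with stratum terms). The interval leaves room for a difference of up to about that size in either direction. It is not adjusted for the number of genes tested, so it does not mark the size needed for a call.

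Rxra, the shared partner of the retinoic acid receptors and of many other nuclear receptors, had the smallest SD over the 9 libraries (0.05). It stood at 12.26, 12.18, 12.26, 12.20 and 12.27 in controls and at 12.24, 12.23, 12.36 and 12.25 in transgene libraries. Transgene replicate 3 was the single library outside the control range. The difference was 0.03 (95% interval -0.08 to 0.15, adjusted p 0.729 in limma with stratum terms), and it was -0.02 with the length trend taken out.

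Rarg made up most of the retinoic acid receptor signal in these tongues. Per kilobase of transcript on the linear scale, it held 82.0% ± 0.467 (SD, n = 5) of the summed signal of Rara, Rarb and Rarg in controls. In transgene libraries it held 79.0% ± 1.29 (SD, n = 4). Rara held 12.1% ± 0.663 and 14.7% ± 1.05, and Rarb held 5.88% ± 0.475 and 6.35% ± 0.563. The shares of Rarg ranged from 81.5% to 82.7% in controls and from 78.0% to 80.8% in transgene libraries. Those of Rara ranged from 11.3% to 13.0% and from 13.5% to 15.9%, so neither gene's share overlapped between the groups, whereas the share of Rarb did. Rarg was 6.75-fold above Rara in controls and 5.38-fold above it in transgene libraries. These shares combine the values given above and carry no test of their own. They sum to the whole and Rarb's share is small, so the shares of Rara and Rarg nearly mirror each other. The Rarg values themselves overlapped between the groups.

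**Figure D3:**
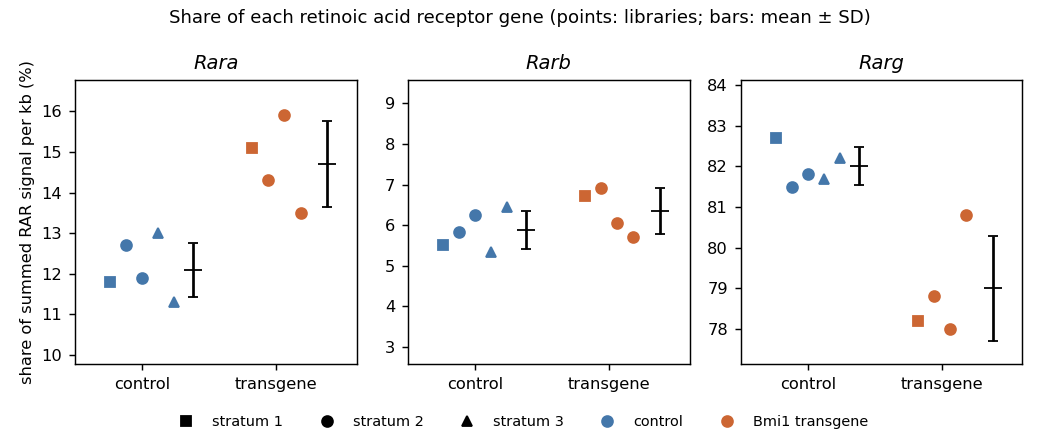
Share of the summed signal per kilobase of Rara, Rarb and Rarg (y axis, percent, a different range in each panel) in 5 control and 4 transgene libraries. Points are libraries with shape for stratum, and bars are the group mean ± SD. All 4 transgene points lie above the control points for Rara and below them for Rarg, and the Rarb shares overlap.

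Stra6, the membrane receptor that takes up retinol from its plasma carrier, was the lowest of the 9 and among the most variable. It stood at 7.15, 7.23, 6.83, 6.92 and 7.22 in controls and at 7.16, 7.36, 7.21 and 7.21 in transgene libraries. Control replicates 3 and 4 were low, and the remaining controls overlapped with the transgene libraries. The difference was 0.17 (95% interval -0.08 to 0.41, adjusted p 0.383 in limma with stratum terms), with 0.01 within stratum 1 and 0.23 within stratum 2. With single libraries left out it ran from 0.02, without control replicate 3, to 0.26, without control replicate 2.

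Dhrs3 turns retinaldehyde back into retinol and so limits the making of retinoic acid. It stood at 10.13, 10.14, 10.10, 10.07 and 10.17 in controls and at 10.01, 10.02, 9.91 and 10.11 in transgene libraries. Transgene replicate 4 lay among the controls and the other 3 lay below them. The difference was -0.11 (95% interval -0.24 to 0.02, adjusted p 0.283 in limma with stratum terms), with -0.12 within stratum 1 and -0.10 within stratum 2. It was -0.07 without transgene replicate 3, -0.14 without transgene replicate 4 and -0.08 with the length trend taken out.

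Cyp26b1 breaks down retinoic acid, and in this tissue it was the measurable member of its family: Cyp26a1 stood between -1.16 and -1.14 and Cyp26c1 between -0.07 and -0.05 in all 9 libraries, below the floor for testing. Cyp26b1 stood at 9.32, 9.20, 9.11, 8.95 and 9.47 in controls and at 9.09, 9.30, 9.07 and 9.35 in transgene libraries. The controls alone spanned more than the transgene libraries did, and the groups overlapped. The difference was -0.01 (95% interval -0.28 to 0.27, adjusted p 0.98 in limma with stratum terms). It was -0.23 within stratum 1 and 0.09 within stratum 2, so the sign differed between the strata.

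**Figure D4:**
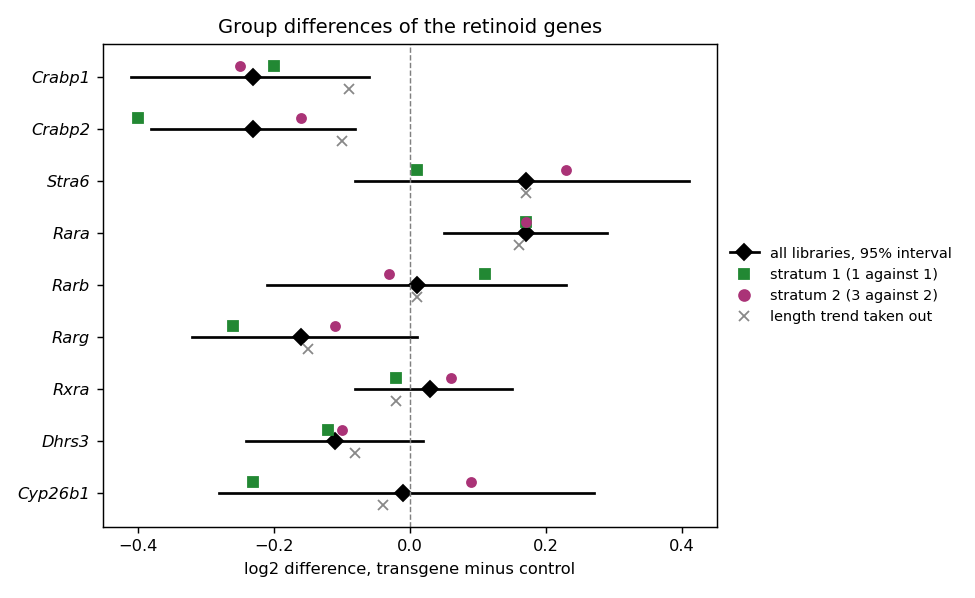
Log2 difference, transgene minus control (x axis), of the 9 retinoid genes. Black diamonds and lines are the estimate over all 9 libraries with its 95% interval, green squares and purple circles are the differences within strata 1 and 2, and grey crosses are estimates with the length trend taken out. The intervals of Crabp1, Crabp2 and Rara lie to one side of 0, and the crosses of Crabp1 and Crabp2 lie nearer to 0 than their diamonds.

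Across genes, levels were compared as log2 expression per kilobase over all 9 libraries. Crabp2 (10.53 ± 0.14, SD, n = 9) and Rarg (10.33 ± 0.12) led, and their ranges overlapped, with Crabp2 above Rarg in 8 of 9 libraries. Rxra (9.95 ± 0.05), Crabp1 (9.25 ± 0.16) and Dhrs3 (8.85 ± 0.08) followed. Rara stood at 7.72 ± 0.10, Cyp26b1 at 7.15 ± 0.16, Rarb at 6.60 ± 0.12 and Stra6 at 5.52 ± 0.17. From Rarg downwards each gene stood above the next in all 9 libraries, and no neighbouring ranges overlapped. The spread within groups, computed on the 5 remaining directions, was widest for Cyp26b1 (0.21), Stra6 (0.18) and Rarb (0.16) and narrowest for Rxra and Rara (0.06 each), against a median of 0.08 over tested genes.

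The genes whose pattern over the 9 libraries was most like that of a member were ranked by the root mean square difference of gene-centred log2 values. For Crabp2 they were Mycl1 (0.027), Mif (0.031) and Spint2 (0.031), and for Crabp1 they were Psrc1 (0.038), Tmem160 (0.038) and Cdc42ep5 (0.042). Crabp1 ranked 1930 in likeness to Crabp2 (0.109). Rara was closest to Fes (0.025), D430019H16Rik (0.028) and Inpp5d (0.030), and Stra6 to Card10 (0.051), Mamdc2 (0.063) and Il10ra (0.066). Likeness here includes the group difference and says nothing of shared function.

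The rest of the pathway was followed in lists of 80 further genes, of which 78 were in the table, 58 passed the floor, 17 lay below it and 3 stood at 0 in every library. In limma with stratum terms 0 of the 58 were called higher and 1 was called lower, against 0.511% and 1.15% of all tested genes. The highest gene of a list is the one with the highest mean log2 normalized value over the libraries, not set per length. The median difference was 0.00 over the 58 and 0.00 over all tested genes. At an unadjusted p under 0.05, 11 of the 58 were higher and 6 of the 58 lower. The shares over all tested genes were 11.2% and 11.8%. Of the 11 higher genes, 7 stood in the list of coactivators and corepressors, whose transcripts are long.

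The gene called was Fabp5, a fatty acid binding protein that can also carry retinoic acid, to the receptor Ppard, and that is abundant in keratinocytes. Fabp5 stood at 14.73, 14.58, 14.55, 14.61 and 14.63 in controls and at 14.12, 14.29, 14.23 and 14.30 in transgene libraries, with a clear gap between the groups. It fell by 0.39 (SE 0.07, adjusted p 0.0418 in limma with stratum terms), a level 0.765-fold that of controls. The difference was -0.61 within stratum 1 and -0.29 within stratum 2. The call ended when any of control replicates 2 to 5 or either of transgene replicates 2 and 3 was left out (adjusted p from 0.0674 to 0.174), under quantile normalization (-0.31, adjusted p 0.0598) and with the length trend of its short transcript of 987 bases taken out (-0.26, adjusted p 0.193). The authors' deposited table lists Fabp5 at -0.44 (adjusted p 1.43e-05). Fabp5 has near-identical copies in the mouse genome, so its value is uncertain where reads could be split between them. Ppard itself, the receptor in question, differed by -0.06 (adjusted p 0.531 in limma with stratum terms).

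Of 9 retinol carrier and uptake genes 4 were tested and 0 called by limma. Of the 4, 2 were lower at an unadjusted p under 0.05, against 11.8% of all tested genes. These were Rbp7 (-0.25, adjusted p 0.0689), a cellular retinol binding protein, and Rbp2 (-0.23, adjusted p 0.167), another of that family and the highest of the list. The list median was -0.12. The transcripts of Rbp7 and Rbp2 are short, at 619 and 672 bases, and removal of the length trend left -0.08 and -0.07 for these genes and -0.01 for the list median. The authors' deposited table lists Rbp7 at -0.34 (adjusted p 0.0295).

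Among 23 retinol and retinaldehyde enzymes, 17 were tested and 0 called by limma with stratum terms. An unadjusted p under 0.05 was seen for 1 higher and 2 lower genes, against 11.2% and 11.8% of all tested genes. Rdh12, which reduces retinaldehyde, differed by -0.26 (adjusted p 0.0632) with no overlap between groups, as for 21.3% of tested genes. With the length trend taken out Rdh12 differed by -0.20. The authors' deposited table lists it at -0.31 (adjusted p 0.0123). Adh7, an alcohol dehydrogenase of upper digestive epithelium that oxidizes retinol, was the highest of the list at 12.43 ± 0.11 (SD, n = 5) in controls and differed by -0.24 (adjusted p 0.182). Its difference was -0.58 within stratum 1 and -0.10 within stratum 2. The list median was -0.08, but it was 0.01 within stratum 1, -0.02 within stratum 2 and -0.01 once the length trend was removed. In the list of retinyl ester and carotenoid enzymes, 8 of 10 were tested and 0 called by limma. The 8 held 1 gene higher at an unadjusted p under 0.05, against 11.2% of all tested genes. That gene was Lrat, which stores retinol as an ester (0.12, adjusted p 0.156), and with the length trend of its transcript of 5351 bases taken out it stood at 0.05 (adjusted p 0.652). The highest was the lipase gene Lpl, at 0.12 (adjusted p 0.298) and at 0.08 with that trend taken out. The list median was -0.01.

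The 11 nuclear receptor coactivators and corepressors were all tested, and limma with stratum terms called 0 of them. Of these, 7 were higher at an unadjusted p under 0.05, against 11.2% of all tested genes, and the median was 0.18. Ncor1, a corepressor of unliganded retinoic acid receptors and the highest of the list, differed by 0.14 (adjusted p 0.169 in limma with stratum terms). The authors' deposited table lists the mediator subunit gene Med1 at 0.25 (adjusted p 0.0424). In limma with stratum terms Med1 differed by 0.22 (adjusted p 0.0914), and by 0.09 with the length trend taken out (adjusted p 0.439). The list median was -0.03 within stratum 1 and 0.24 within stratum 2. These are long transcripts, with a median of 8024 bases. After removal of the length trend the list median was 0.05, with Ncor1 at 0.00.

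Among known target genes of retinoic acid other than the members, 8 of those tested had differences above 0 and 3 below it. The 8 include Tgm2, at 0.00, and some genes of this list also stand in other lists. Of the members that are targets, Crabp2 (-0.23), Dhrs3 (-0.11) and Cyp26b1 (-0.01) had estimates below 0. Those of Stra6 (0.17) and Rarb (0.01) were above 0. The signs of Cyp26b1 and Rarb each turned in 4 of 17 alternative settings, and no member was called. Of 19 listed, 11 were tested, 6 lay below the floor and 2 stood at 0, and 0 of the 11 were called by limma. Of the 11, 1 was higher and 1 lower at an unadjusted p under 0.05, against 11.2% and 11.8% of all tested genes. The one lower was Rarres1, a gene named for its response to retinoids (-0.24, adjusted p 0.144, and -0.15 with the length trend taken out), and its groups overlapped. Tgm2, the tissue transglutaminase and a widely used readout of retinoic acid, was the highest of the list, with a control mean of 11.52 ± 0.03 (SD, n = 5), a transgene mean of 11.53 ± 0.02 (SD, n = 4) and a difference of 0.00 (adjusted p 0.966). The list median was 0.10, against 0.00 over all tested genes. It was -0.04 within stratum 1, 0.10 within stratum 2 and 0.06 once the length trend was removed.

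**Figure D5:**
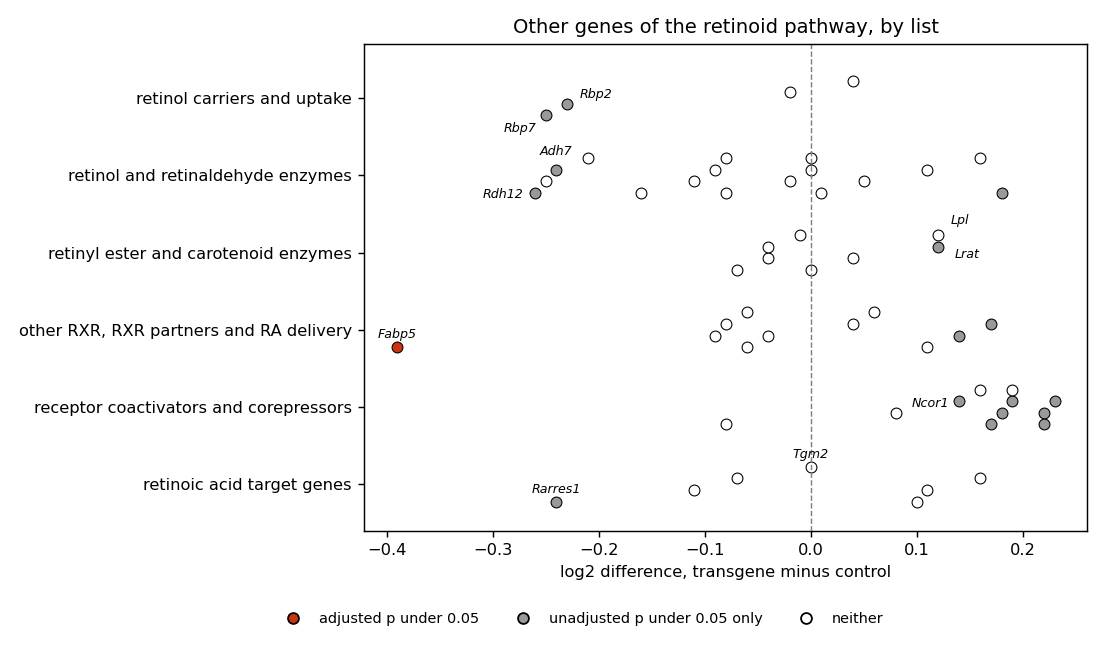
Log2 difference, transgene minus control (x axis), of 58 other tested genes of the retinoid pathway by list (y axis), with each gene drawn once in the first list that holds it and spread vertically for legibility. Red marks an adjusted p under 0.05, grey an unadjusted p under 0.05 alone and white neither. Fabp5 at -0.39 is the red point, and 10 of the 11 coactivator and corepressor genes lie to the right of 0.

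Markers of the tongue's cell types were read beside these values. All 11 marker lists were detected, and no marker in the table stood at 0 in every library. The summed log2 level of 7 basal keratinocyte markers ran from 16.99 to 17.21 in controls and from 16.89 to 17.08 in transgene libraries, and that of 7 suprabasal oral markers from 19.68 to 20.10 and from 19.61 to 20.05, so both overlapped. The 8 hard keratins of the filiform papillae ran from 14.65 to 14.97 and from 13.68 to 14.52. Of these, 5 were called lower in limma with stratum terms, against 1.15% of all tested genes. Fibroblast markers ran from 16.25 to 16.65 and from 16.63 to 16.96. Endothelial markers ran from 13.61 to 13.93 and from 13.88 to 14.16. Both sets overlapped between the groups, but only at the edges of their ranges. Their summed levels differed by 0.27 for fibroblast and 0.21 for endothelial markers, and limma with stratum terms called 0 genes of either set. Macrophage markers, with 6 of 7 in the table, ran from 12.11 to 12.28 and from 12.35 to 12.41. Of these, 1 was called higher, against 0.511% of all tested genes. Salivary gland markers ran from 12.19 to 12.26 and from 12.33 to 12.40. Muscle, adipocyte, Schwann cell and taste cell markers overlapped between the groups. Among single tested genes, groups without overlap were seen for 21.3%. The part of these marker levels in the values of Crabp1, Crabp2, Fabp5 and Rara was not tested.

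The exact permutation test within strata, two-sided, exchanged labels among 20 splits and cannot give a p below 0.05. The exact p was 0.05, the smallest possible, for Crabp1 and Rara. For the other members it gave p = 0.1 for Crabp2, 0.15 for Dhrs3, 0.25 for Rarg and Stra6, 0.6 for Rxra and 1.0 for Rarb and Cyp26b1, by the same exact test.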

How the data were processed

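Per the labels' protocols, libraries were stranded, made from mRNA and sequenced single-end on an Illumina instrument. The submitters' processing notes name TopHat2, HTSeq, DESeq2 and the build mm9 without versions. The table the authors deposited holds log2 normalized expression of 20512 named genes. They also deposited a comparison of 981 genes with a mean signal, a log2 fold change, a test score, p-values and a linear ratio. The log2 values had nearly equal library sums, and low genes varied little between libraries, which can understate the differences of low genes. A total of 1 row without a name and 3064 genes at 0 in every library were left out.

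Strata were found by a search over 3003 partitions of the libraries into 3 sets, of which 1 left no effect beyond the group means. limma 3.58.1 in R 4.3.3 was run with group and stratum terms and an intensity trend, two-sided, with Benjamini-Hochberg adjustment over 14490 genes of mean log2 value 3 or more. The script was tested on simulated data. Transcript length was that of the longest GENCODE M21 transcript matched to RefSeq, known for 99.4% of tested genes. Python 3.11.15 was used for summaries and the exact permutation tests.

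Members and lists were chosen with earlier results of these data known, as was the choice of stratum terms. Named genes were all members, called genes of each list or else the one with the smallest p, the highest of each list, and the 3 genes most like each of the 4 members with the largest differences. Ppard, Med1, Cyp26a1 and Cyp26c1 were named outside this rule, and 1 gene within it is not reported here. Replicates were numbered in accession order.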

Additional observations from a re-analysis of the deposited data

Results flagged for a closer look

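Rxra in transgene replicate 3 stood at 12.36, apart from the other 3 transgene libraries, which lay between 12.23 and 12.25. The gap to its nearest neighbour was 0.837 of the group's range. It was the 1 such value among 18 groups examined (9 genes in each of 2 genotypes). Chance alone flags about 1 in 20 groups.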

How the results depend on the processing

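No paired analysis was possible because the labels give no replicate numbers shared between the groups. Each member's difference was recomputed under 17 alternatives. Crabp1, Crabp2, Rara, Rarg, Stra6 and Dhrs3 kept their sign in all 17, but not all of these could change it. The group as the only term, a higher floor, no filter and no intensity trend returned each member's reported difference. So did leaving out either control of stratum 3, which holds no transgene library. Leaving out control replicate 1 or transgene replicate 1 gave the same differences as stratum 2 alone. The 17 are therefore not 17 separate checks of sign. The number of members called was 0 in the reported fit and in 16 alternatives, and 3 with the group as the only term, where Crabp1 (-0.23), Crabp2 (-0.23) and Rara (0.17) passed. With single libraries left out, Crabp1 ran from -0.32 to -0.14, Crabp2 from -0.28 to -0.16 and Rara from 0.12 to 0.22. The sign turned for 3 members with differences near 0. Rarb was -0.03 without control replicate 1, transgene replicate 1 or transgene replicate 2 and in stratum 2 alone (leave-one-out range -0.03 to 0.06). Cyp26b1 was 0.09 in stratum 2 alone, and its leave-one-out range was -0.07 to 0.09. Rxra was -0.02 with the length trend taken out and 0.00 to 0.06 with 1 library left out. Calls over all genes numbered 240 in the reported fit, 3537 with the group as the only term, 152 without a filter on low values, 69 under quantile normalization, 2 with the length trend taken out and 733 in stratum 2 alone, and 0 to 1841 with 1 library left out. The 1841 came without control replicate 1, which leaves stratum 1 no contrast, and 1835 came without transgene replicate 1. Calls among pathway genes numbered 1 in the reported fit, 19 with the group as the only term, 3 without a filter, 0 under quantile normalization, 0 with the length trend taken out, 3 in stratum 2 alone and 0 to 10 with 1 library left out. The causes were not tested. Unknown depth and values already altered before deposit limit what small differences can show.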
